A study of Mus musculus with 6 samples.

Results

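Semaphorins, plexins, neuropilins, ephrins and Eph receptors are the families through which cells steer, attract or repel their neighbours. All genes of the deposited tables whose symbol named a semaphorin of classes 3 to 7, a plexin, a neuropilin, an Eph receptor or an ephrin were taken, which gave 53 of 23420 genes. They were 20 semaphorins, 2 neuropilins, 9 plexins, 5 ephrin-A and 3 ephrin-B ligands, 9 EphA receptors and 5 EphB receptors, and all 53 were protein coding in the GENCODE annotation. RNA had been sequenced at 8 pm on day 4 of pregnancy, just before blastocysts attach, from the laser-microdissected luminal epithelium of the uterus and from blastocysts flushed from the uterine horns. The mothers of the control group carried 2 floxed alleles of *Lif* (leukemia inhibitory factor, a cytokine needed for implantation; labelled Lif-floxed/floxed) without Cre and received PBS. Mothers of the eKO group carried the same floxed alleles with 1 copy of Cre under the promoter of the lactoferrin gene (Ltf-Cre/+), which is active in the uterine epithelium, and also received PBS. The third group was eKO mothers injected with recombinant *Lif* (rLif), 20 µg each time, in the morning at 10 am and again at 6 pm, so that the last dose came 2 h before collection. Blastocysts of all 3 groups were labelled Lif-floxed/+, so the groups differed in the mother and not in the labelled genotype of the embryo. Each of the 6 groups was 1 library, pooled from several animals. No value below therefore has a replicate check, no p-value is given, and every interval covers counting error only.

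Semaphorins are secreted or membrane-bound ligands, and plexins are their receptors, whose intracellular part switches off Ras-family GTPases. Most secreted class 3 semaphorins bind a neuropilin that pairs with a plexin, and neuropilins also bind vascular endothelial growth factors. Ephrins are ligands held at the cell surface, by a lipid anchor for the A class and by a transmembrane segment for the B class, and Eph receptors are receptor tyrosine kinases on the facing cell. Signals can run in both directions across the contact, and these families are known for boundaries between cell layers, vessel patterning and the adhesion of epithelial cells.

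Total counts were 23850565 to 28460465 in the luminal libraries and 18996158 to 19638852 in those of blastocysts. A minimum of 10 counts, summed within a tissue, left 48 of the 53 guidance genes among 15694 genes in the luminal layer, and 44 among 14873 genes in blastocysts. Counts of *Lif* itself were 0, 28 and 0 in luminal control, eKO and rLif-treated eKO, as labelled, and 1447, 1736 and 1250 in the blastocyst libraries. The 28 counts (0.975 CPM, counts scaled to a common library size, 95% interval 0.648 to 1.41) were in the library labelled as the deletion, so the targeted gene did not check the luminal labels, and libraries are named below as they were labelled. A gene was called higher or lower when the whole 95% interval of its ratio between libraries lay beyond a log2 ratio of 1, that is, beyond a 2-fold difference. The epithelial markers *Cdh1* (E-cadherin) and *Epcam* had 5859, 6638 and 6224 counts and 25283, 16397 and 35284 counts in the luminal libraries in the order above. The summed CPM of 7 trophectoderm markers were 6922, 7390 and 7202 in the blastocyst libraries, and 2373, 3123 and 1955 in the luminal ones. *Krt8* and *Krt18* on this list are also luminal epithelium markers. The inner cell mass markers summed to 536, 548 and 733 CPM in the blastocyst libraries. In the luminal layer the nerve and glia genes *Sox10*, *Tubb3* and *Prph* had 0 counts in all 3 libraries, as had the inner cell mass genes *Nanog* and *Pou5f1*. Counts show RNA in the sampled tissue, and fewer cells of a type and less RNA per cell cannot be told apart.

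**Figure D1:**
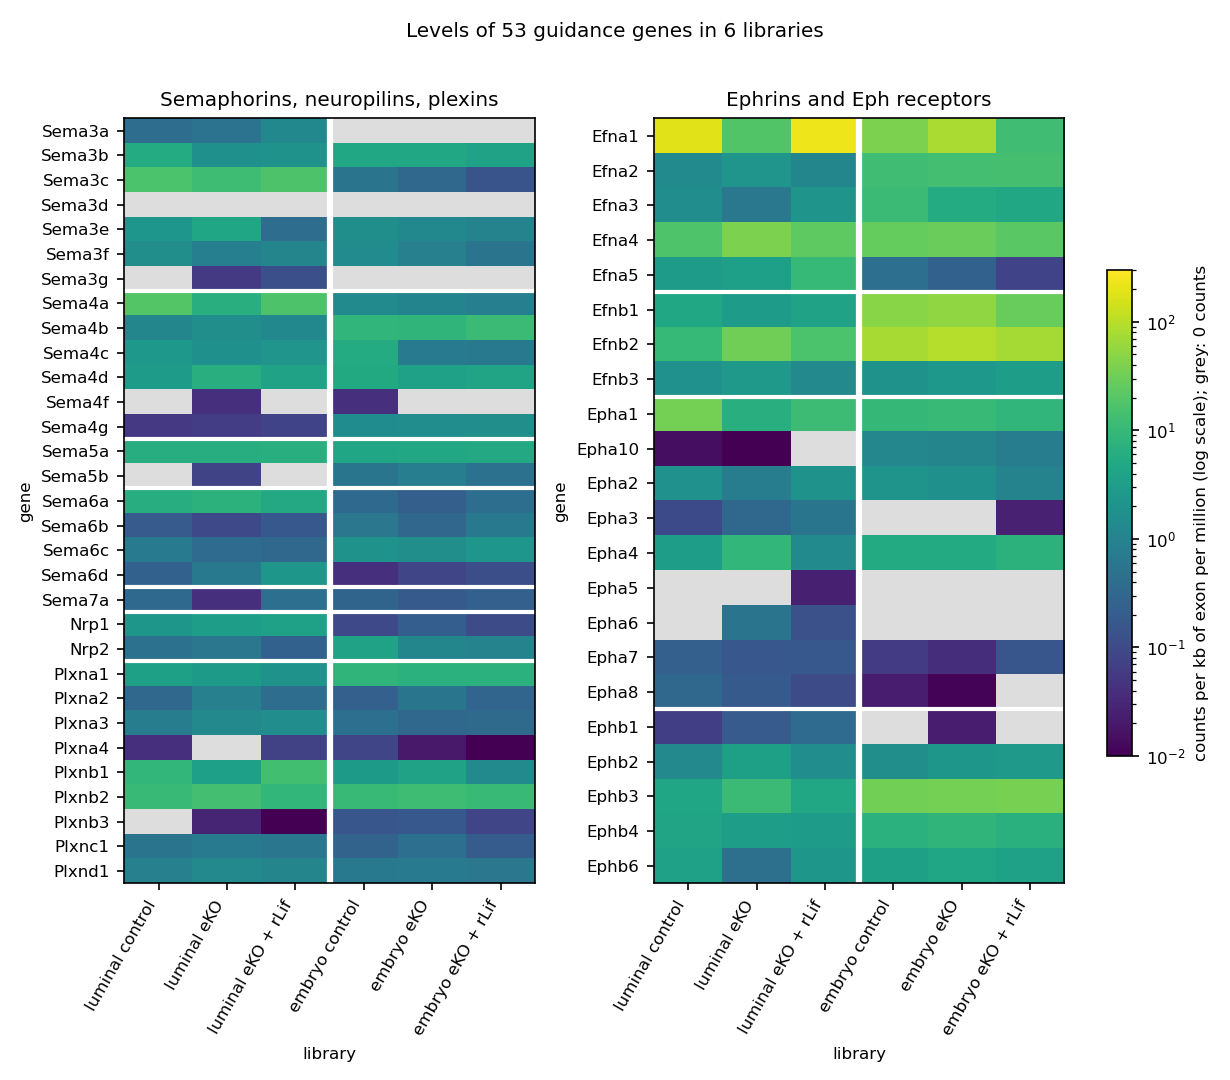
Levels of all 53 guidance genes in the 6 libraries, as CPM per kilobase of exon on a log colour scale, with grey for 0 counts; rows are genes grouped by family and columns are libraries. In the luminal layer *Efna1* stands out in the control (185) and rLif (232) libraries and not in the eKO library (18.4). In blastocysts *Efnb2* is highest in every library (79.1, 95.9 and 74.8).

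The most abundant guidance gene was an ephrin in both tissues, ephrin-A1 in the luminal layer and ephrin-B2 in blastocysts. Levels are compared between genes as CPM per kilobase of exon. In the luminal library labelled control, *Efna1* (ephrin-A1, a lipid-anchored ligand of EphA receptors) was at 185 (95% interval 181 to 190), a level above 96.4% of all genes analysed there. *Epha1* (an EphA receptor) followed at 34.7. The next 3, *Sema4a* (a transmembrane semaphorin) at 18.8, *Efna4* at 17.3 and *Sema3c* (a secreted semaphorin) at 16.4, had intervals that overlapped from each to the next. *Plxnb2* (a B-class plexin) at 10.6 and *Efnb2* (ephrin-B2) at 10.2 did not differ beyond counting error either. In the blastocyst control library the order was *Efnb2* at 79.1, *Efnb1* at 49.0, *Efna1* at 39.1, *Ephb3* (an EphB receptor) at 33.9 and *Efna4* at 26.7, each apart from the next by more than its interval. *Efna2* came next at 12.8, and its interval overlapped that of *Efna3*. The tissues were prepared and scaled separately, so these levels are set side by side and were not tested against each other.

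**Figure D2:**
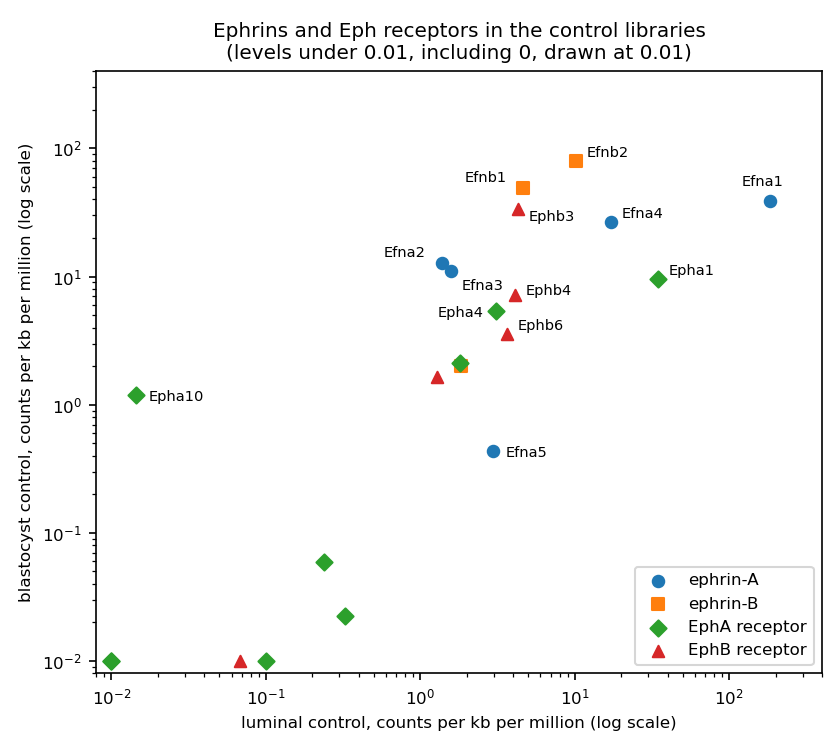
Levels of the 22 ephrin and Eph receptor genes in the control library of the luminal layer (x axis) and of blastocysts (y axis), both in CPM per kilobase of exon on log axes, with symbols by family. *Efna1* and *Epha1* lie furthest right, *Efnb2* and *Efnb1* highest, and *Epha10* shows 1.19 in blastocysts against 0.0145 in the luminal layer; genes without counts in both control libraries lie on each other at the lower left corner.

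Several members were at or near 0 in 1 tissue or in both. The minimum removed 5 in the luminal layer (*Epha5*, *Epha10*, *Plxnb3*, *Sema3d* and *Sema4f*) and 9 in blastocysts (*Epha3*, *Epha5*, *Epha6*, *Epha8*, *Ephb1*, *Sema3a*, *Sema3d*, *Sema3g* and *Sema4f*). *Sema3d* had 0 counts in all 6 libraries. *Epha5* had 0, 0 and 5 counts in the luminal libraries and 0 in every blastocyst library. *Sema3a* (0 against 73 to 229 in the luminal libraries), *Sema3g* and *Epha6* were also without counts in all 3 blastocyst libraries. In the other direction *Epha10* had 124, 118 and 81 counts in blastocysts and 2, 1 and 0 in the luminal libraries. *Sema4g* had 121 to 137 counts in blastocysts against 6 to 9, and *Plxnb3* had 10 to 20 against 0 to 5. At these depths a count of 0 shows only that the gene was not detected. The exons of *Epha10* overlap a predicted gene, *1700125G02Rik*, and those of *Nrp1* overlap the microRNA gene *Mir1903*, so reads of these 2 genes could have been assigned either way.

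In the luminal library labelled eKO, guidance genes differed from control in both directions, among them the most abundant ephrin, Eph receptor and semaphorin of the control library. In this comparison 8 of 48 analysed guidance genes were called higher, beside 8.08% of all genes, and 8 lower, beside 9.15%. The 16 made 33.3% of the guidance genes, and calls in either direction made 17.2% of all genes. The median log2 ratio over the 48 genes was 0.28, beside 0.01 over all genes. Of the 16, 12 had at least 100 counts in a luminal library, and they are described by role below. With edgeR's exact test at a fixed dispersion of 0.1 the number called was 6, beside 7.96% of all genes.

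**Figure D3:**
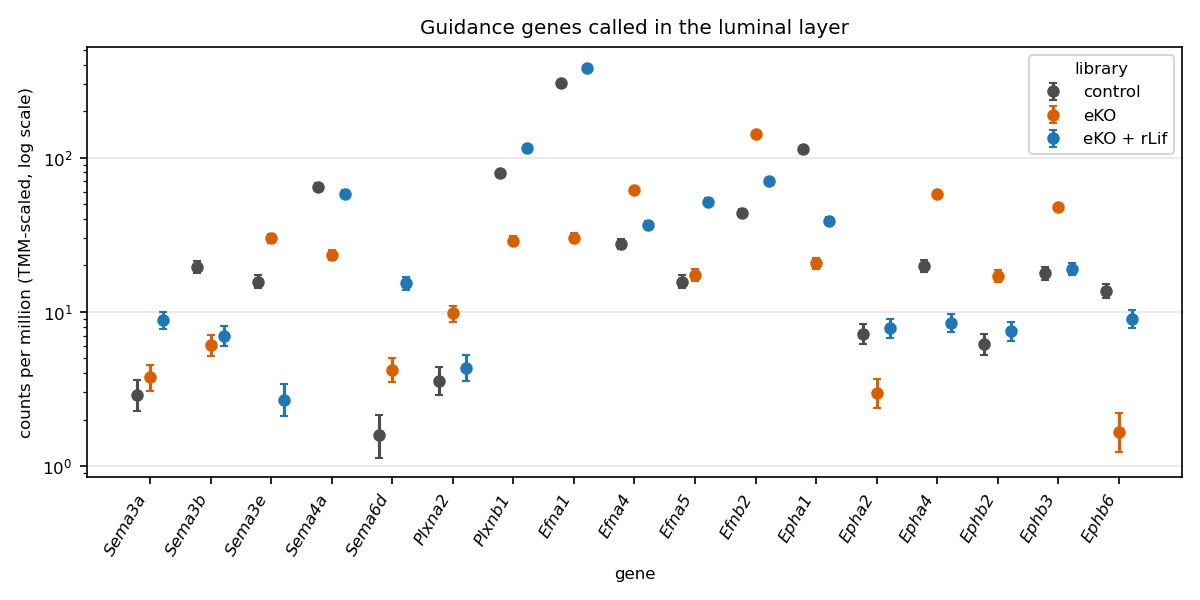
TMM-scaled CPM (log axis) of the 17 guidance genes with at least 100 counts that were called in any comparison of the luminal layer, ordered by family; points are single libraries and bars are exact 95% Poisson intervals. *Efna1*, *Plxnb1*, *Sema4a* and *Ephb6* are low in the eKO library alone, *Epha4*, *Ephb3* and *Efnb2* are high in it, and *Sema3e* is low and *Sema6d* high in the library with rLif.

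Among ligands of Eph receptors, *Efna1* stood out. Its counts were 7682 in control, 866 in eKO and 9923 in rLif-treated eKO. The eKO library was low and the other two were high. The log2 ratio of eKO to control was -3.33 (95% interval -3.44 to -3.23), a level 10.1-fold lower, and that of eKO with rLif to eKO was 3.66 (3.56 to 3.76). *Efna1* lies at chr3:89271730-89280951 on the minus strand of GRCm38. Its neighbours on the same strand are *Efna3*, 34.0 kb away, and *Efna4*, 10.5 kb beyond *Efna3*, with no other gene of the tables between them.

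The 3 neighbouring ephrin genes did not move alike. *Efna4* had 696, 1767 and 952 counts in control, eKO and eKO with rLif, and was called higher in eKO (1.16, 1.03 to 1.29), opposite to *Efna1*. Its call was lost when libraries were scaled by their totals. *Efna3* was low throughout, with 49, 22 and 66 counts, and was called only between eKO with rLif and eKO (1.73, 1.01 to 2.49), a call lost under scaling by library totals or upper quartiles. *Efna4* was thus the most abundant guidance gene of the eKO library at 38.6 CPM per kilobase, ahead of *Efnb2* at 32.7 and *Efna1* at 18.4. The summed level of the 5 ephrin-A genes was 209, 63.0 and 268 in control, eKO and eKO with rLif.

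The remaining ephrins gave other patterns. *Efnb2*, a transmembrane ligand known from the border between arteries and veins, had 1110, 4052 and 1845 counts, highest in eKO. It was called higher in eKO than in control (1.68, 1.59 to 1.78), and with rLif it stood between the other two libraries, at a log2 ratio of -0.99 to eKO that was not called. *Efna5* had 396, 500 and 1344 counts, high only with rLif (1.72 against control and 1.57 against eKO). The summed ephrin-B level was 16.7, 38.3 and 21.5, so the ephrin-A sum was lowest and the ephrin-B sum highest in eKO. *Efnb1* (383, 280 and 320 counts), *Efnb3* (150, 247 and 107) and *Efna2* (74, 130 and 62) were not called.

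Eph receptors also split. *Epha1* had 2867, 591 and 1014 counts in control, eKO and eKO with rLif. Control was high and both eKO libraries were low, so *Epha1* was called lower in eKO (-2.46, -2.59 to -2.34) and remained called lower with rLif (-1.54, -1.65 to -1.44). *Ephb6*, a member of the EphB class whose kinase is inactive, had 345, 48 and 234 counts and was low in eKO alone (-3.03, -3.50 to -2.59). Its log2 ratio of eKO with rLif to eKO was 2.43 (1.97 to 2.91). *Epha1* (chr6:42358487-42373268) and *Ephb6* (chr6:41605482-41620507) lie on chromosome 6.

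Receptors that were high in the eKO library were *Epha4*, *Ephb3* and *Ephb2*. *Epha4*, a receptor that binds ephrins of both classes, had 498, 1654 and 220 counts. It was called higher in eKO than in control (1.55, 1.40 to 1.69) and lower with rLif than in eKO (-2.77, -2.98 to -2.57), ending below control at -1.22. That last ratio was called only under scaling by library totals or by upper quartiles. *Ephb3* had 449, 1364 and 492 counts (1.42 between eKO and control, -1.33 between treated and untreated eKO). *Ephb2*, its close relative, had 155, 488 and 195 counts and was called in the first of these comparisons (1.47). *Epha2* ran the other way with 181, 85 and 203 counts and was called only between eKO with rLif and eKO (1.40, 1.03 to 1.78), a call lost under scaling by library totals or upper quartiles. The EphA receptors summed to 40.3, 17.4 and 16.2 CPM per kilobase and the EphB receptors to 13.4, 18.7 and 11.9.

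**Figure D4:**
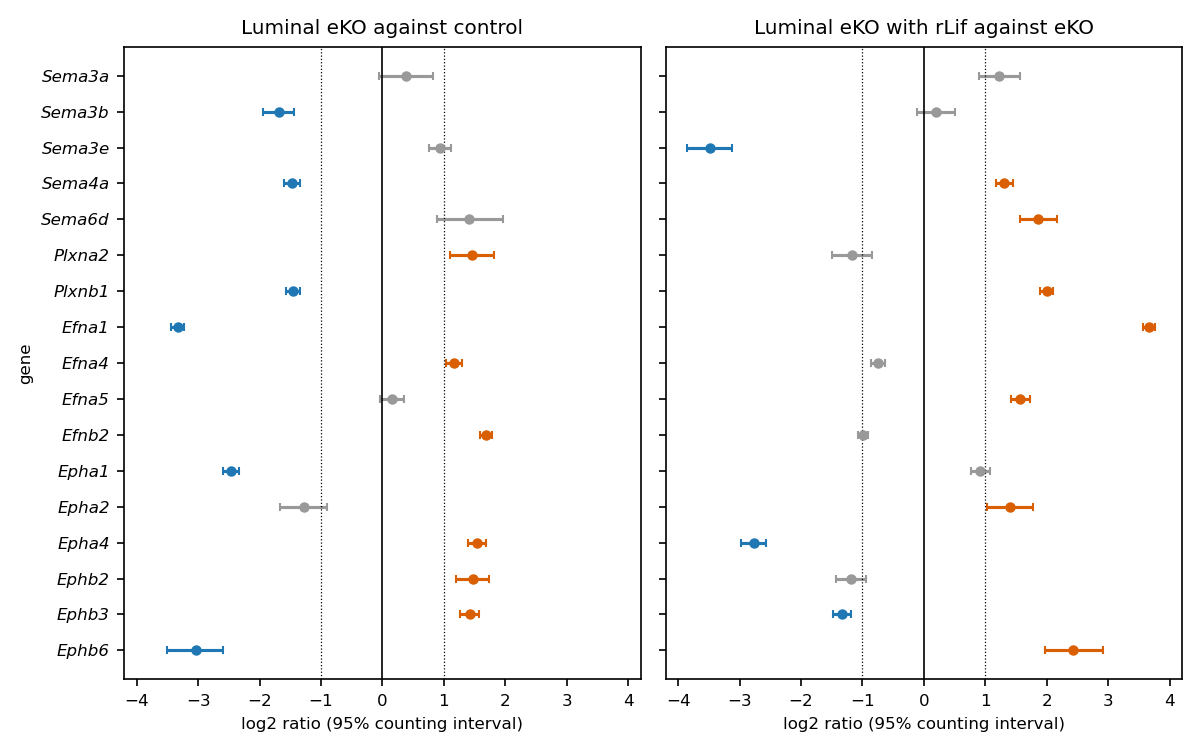
Log2 ratios of the same 17 genes in the luminal layer, eKO against control (left) and eKO with rLif against eKO (right), with 95% counting intervals; orange marks genes called higher, blue genes called lower and grey genes not called, and dotted lines mark a log2 ratio of 1 in each direction. The eKO library enters both panels, so the opposite points of a gene such as *Efna1* (-3.33 and 3.66) share that library and are not independent.

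Among plexins, the receptors of semaphorins, *Plxnb1* was low in the eKO library. It had 2000, 832 and 3007 counts in control, eKO and eKO with rLif (-1.45, -1.57 to -1.33, between eKO and control, and 2.00, 1.88 to 2.11, between treated and untreated eKO). *Plxna2*, a partner of neuropilins, was high there instead, with 90, 280 and 113 counts (1.45, 1.10 to 1.81). *Plxnb2*, the most abundant plexin of the control library, had 1756, 2593 and 1595 counts and was not called in any comparison. The plexins as a family summed to 26.0, 24.1 and 28.4 CPM per kilobase. The neuropilins *Nrp1* (345, 545 and 571 counts) and *Nrp2* (99, 137 and 51) were not called in the luminal layer.

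Of the 18 analysed semaphorins, 3 were called lower and 1 higher in eKO against control, which is 22.2% of them beside 17.2% of all genes, with a median log2 ratio of 0.10. *Sema4a* had 1635, 674 and 1514 counts, low in eKO alone (-1.46, -1.60 to -1.33, and 1.31 for eKO with rLif against eKO). *Sema3b*, a secreted semaphorin, had 493, 174 and 181 counts. It was low in both eKO libraries, and was called lower than control without rLif (-1.69) and with it (-1.49). *Sema4d*, a ligand of *Plxnb1*, had 329, 797 and 434 counts and was not called (1.09, 0.90 to 1.28). The abundant *Sema3c* (2047, 1759 and 2209 counts), *Sema5a* (1701, 1904 and 1867) and *Sema6a* (1074, 1475 and 895) were not called in any luminal comparison. The analysed guidance genes called in none of the 3 luminal comparisons had 6 to 2593 counts in a library and log2 ratios from -1.63 to 1.09.

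The 4 guidance genes called in eKO against control with fewer than 100 counts in every luminal library carry wide intervals. *Epha6* had 0, 65 and 14 counts and was at least 19.0-fold higher in eKO, computed against a floor of 3 counts in control. *Plxna4* had 13, 0 and 24 counts and was at least 4.93-fold lower in eKO, where the same floor stands for 0. *Sema7a*, a lipid-anchored semaphorin, had 28, 4 and 37 counts. *Sema5b* had 0, 11 and 0 counts. They are 2 genes with counts mainly in the eKO library and 2 with few or none there.

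Against control, the library with rLif differed in fewer guidance genes. Of 48 genes, 7 were called higher, beside 4.12% of all genes, and 3 lower, beside 5.04%. The 10 calls made 20.8% beside 9.16% of all genes, and the median log2 ratio was 0.09 beside 0.01. *Sema6d*, a transmembrane semaphorin, had 40, 121 and 399 counts in control, eKO and eKO with rLif and was 9.67-fold higher with rLif (3.27, 2.80 to 3.78). *Sema3e*, the ligand of *Plxnd1* in vessels, had 396, 860 and 70 counts and was 5.83-fold lower (-2.54, -2.93 to -2.17). In the untreated eKO library both were above control without being called, *Sema6d* at 1.41 (0.88 to 1.96) and *Sema3e* at 0.93 (0.76 to 1.11). *Sema3a*, which repels growing axons and vessels, had 73, 108 and 229 counts (1.60, 1.22 to 2.01). Called with few counts were *Epha3* (10, 36 and 56), *Ephb1* (8, 26 and 44), *Sema3g* (0, 6 and 12) and *Epha6*. The endothelial markers *Tek* (124, 198 and 897 counts) and *Cdh5* (232, 623 and 602) were called higher with rLif than in control as well, 2 of 8 endothelial markers, with summed CPM of 71.2, 99.7 and 117 over the 3 libraries. Of 6 analysed markers of glandular epithelium, 2 were also called higher with rLif than in control. The 6 summed to 1085, 1719 and 2543 CPM, while the gland regulator *Foxa2* had 3, 0 and 10 counts. The primitive endoderm markers, which share only *Sox17* with the glandular ones, summed to 1179, 1790 and 2619 CPM. Both sums hold *Sox17*, whose share of them is not given here. The part of these markers in the results for *Sema3a*, *Sema6d* and the other guidance genes was not tested. With edgeR's exact test at a dispersion of 0.1, 2 guidance genes were called, beside 2.18% of all genes.

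Against eKO, the library with rLif had 10 guidance genes called higher, beside 7.88% of all genes, and 5 lower, beside 7.77%. The 15 calls made 31.2% of 48 genes beside 15.6% of all genes, with a median of 0.16 beside -0.01. Scaled by library totals or by upper quartiles the split was 8 higher and 7 lower, since the calls of *Epha2* and *Efna3* were lost and *Ephb2* and *Efnb2* were called lower. Those called higher with at least 100 counts were *Efna1*, *Ephb6*, *Plxnb1*, *Sema6d* (1.86), *Efna5*, *Sema4a* and *Epha2*, and those called lower were *Sema3e* (-3.48, -3.85 to -3.13), *Epha4* and *Ephb3*. *Sema3e* was thus lower with rLif than in either of the other libraries. *Plxna4*, *Sema7a* and *Efna3* were called higher and *Epha6* and *Sema5b* lower with fewer than 100 counts. This comparison shares the eKO library with the first one and the rLif library with the second. With edgeR's exact test at a dispersion of 0.1, 7 guidance genes were called, beside 7.07% of all genes.

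Stroma and muscle genes were read in the same libraries, since the microdissected layer borders on stroma. The 11 stroma markers summed to 924, 1363 and 928 CPM in control, eKO and eKO with rLif. The sum was highest in eKO, as were *Efna4*, *Efnb2*, *Epha4*, *Ephb3*, *Ephb2* and *Plxna2*. The median log2 ratio of the 11 in eKO against control was 0.33. Of the stroma markers 1 of 11 was called higher in eKO against control (9.09% beside 17.2% of all genes). It was the collagen gene *Col3a1* with 5719, 14377 and 8335 counts. Smooth muscle markers summed to 79.1, 67.3 and 36.2 CPM. With rLif against control 4 of 7 were called lower (57.1% beside 9.16% of all genes), with a median log2 ratio of -1.75. In each of the other comparisons 2 of 7 were called lower (28.6% beside 17.2% for eKO against control and 15.6% for rLif against eKO). Immune markers summed to 910, 827 and 794 CPM. *Lyz2*, a gene of myeloid cells, made 745, 612 and 549 of the immune sum. The other 8 immune markers ran the other way, at 165, 215 and 245 CPM. Of 7 luminal epithelium markers, 2 were called higher in eKO against control, *Krt19* with 8537, 57150 and 9081 counts and *Krt8* with 21158, 49601 and 15790. The median log2 ratio of the 7 was 0.01, and *Epcam* was at -0.81. The part of these cell types in the guidance genes was not tested.

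*Efna1*, *Ephb6*, *Plxnb1* and *Sema4a* were called lower in eKO than in control and higher with rLif than in eKO, and *Epha4* and *Ephb3* the other way. Both comparisons hold the eKO library, so a value that is low or high in that library alone can give opposite calls. With at least 100 counts, the 6 were 17.1% of 35 guidance genes, and opposite calls were made for 8.74% of all 11783 genes. The 250 bases before the transcription start are printed for 2 genes of each kind, since these are the stretches in which motifs of Stat proteins (which act downstream of *Lif*) and of steroid receptors were looked for. The sequences are from RefSeq (GRCm38.p6), 5′ to 3′ on the strand of the gene, and end at the base before the start. Capitals mark CG dinucleotides.
*Efna1*: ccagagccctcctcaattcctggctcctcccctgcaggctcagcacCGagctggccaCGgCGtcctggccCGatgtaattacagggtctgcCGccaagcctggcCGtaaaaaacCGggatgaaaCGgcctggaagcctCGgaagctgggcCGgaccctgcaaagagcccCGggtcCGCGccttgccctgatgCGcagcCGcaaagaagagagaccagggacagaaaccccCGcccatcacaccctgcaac
*Plxnb1*: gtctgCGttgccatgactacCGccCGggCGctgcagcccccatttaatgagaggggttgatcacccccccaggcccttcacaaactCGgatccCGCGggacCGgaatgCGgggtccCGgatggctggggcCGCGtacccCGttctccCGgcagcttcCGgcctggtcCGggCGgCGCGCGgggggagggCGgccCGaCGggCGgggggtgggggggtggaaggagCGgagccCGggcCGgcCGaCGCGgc
*Epha4*: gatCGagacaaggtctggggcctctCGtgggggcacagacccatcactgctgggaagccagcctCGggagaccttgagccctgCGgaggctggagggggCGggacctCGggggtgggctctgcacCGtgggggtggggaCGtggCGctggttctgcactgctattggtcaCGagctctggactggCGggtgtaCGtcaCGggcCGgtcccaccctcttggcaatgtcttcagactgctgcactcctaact
*Ephb3*: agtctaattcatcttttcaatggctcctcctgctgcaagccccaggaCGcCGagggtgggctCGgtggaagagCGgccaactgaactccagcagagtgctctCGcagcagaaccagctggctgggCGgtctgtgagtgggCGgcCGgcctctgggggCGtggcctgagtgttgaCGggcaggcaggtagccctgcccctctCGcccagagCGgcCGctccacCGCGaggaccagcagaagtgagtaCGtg

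*Efna1* has 16 CG dinucleotides in this stretch at chr3:89280952-89281201 (minus strand), *Plxnb1* 30 at chr9:109095186-109095435 (plus), *Epha4* 14 at chr1:77515089-77515338 (minus) and *Ephb3* 16 at chr16:21204545-21204794 (plus). The median over the 32851 promoter windows of all genes was 6, and 25.4% of them had at least 16. Promoter windows were matched for 47 of the 53 guidance genes, and over these 61 windows the median was 16. Windows of 250 bases before to 50 after the start were searched on both strands for TTCNNNGAA and TTCNNNNGAA (Stat), GNACANNNTGTNC (progesterone and glucocorticoid receptors) and GGTCANNNTGACC (estrogen receptor). None of the 10 windows of the 6 genes held any of the 4 motifs. Over all windows the shares were 8.3%, 6.95%, 0.475% and 0.07%, and over the windows of guidance genes 4.92%, 8.2%, 0 and 0. The absence of these letters from a window says nothing of binding elsewhere.

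Signaling partners of the families were counted from lists of genes known to act with them. Of 33 analysed genes of semaphorin and plexin signaling, 3 were called higher, beside 8.08% of all genes, and 7 lower, beside 9.15%, in eKO against control. The 10 made 30.3% of the list beside 17.2% of all genes, with a median log2 ratio of -0.23. *Met* and *Mst1r* encode receptor tyrosine kinases that associate with B-class plexins. *Met* had 1376, 386 and 1087 counts and *Mst1r* 231, 45 and 198, both low in eKO alone like *Plxnb1*. *Rras2*, a Ras-family GTPase, had 2340, 930 and 3996 counts. *Dpysl5*, a collapsin response mediator, had 103, 0 and 0 counts and was at least 39.1-fold lower in eKO. *Itga1*, the integrin chain that binds *Sema7a* together with *Itgb1*, had 312, 98 and 194 counts. The list also held *L1cam* (241, 74 and 39) and *Gipc1* (9012, 3868 and 6627) among those called lower. Those called higher were *Gsk3b*, a kinase, with 2042, 5564 and 2924 counts, *Mical3* with 170, 471 and 224, and *Nrcam* with 4, 27 and 8. With rLif against eKO, 4 genes of the list were called higher, among them *Met*, *Mst1r* and *Rras2*, and 2 lower (18.2% in all beside 15.6%). Against control 2 were called lower and none higher (6.06% beside 9.16%).

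Of 31 analysed genes of ephrin and Eph signaling, 1 was called higher and 2 lower in eKO against control, 9.68% beside 17.2% of all genes, with a median log2 ratio of 0.25. *Sdcbp* (syntenin, which binds the tails of ephrin-B ligands) had 69395, 26974 and 116197 counts, low in eKO and high with rLif. *Ngef* (ephexin, an exchange factor bound to EphA receptors) had 1990, 687 and 1060 counts. *Vav3*, another exchange factor, had 203, 573 and 318 counts and was called higher. With rLif against eKO, *Sdcbp* was called higher (2.25) and *Tiam1* lower, 1 gene in each direction (6.45% beside 15.6%). Against control 1 was called lower (3.23% beside 9.16%), *Grip1* with 99, 53 and 27 counts.

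The other families that share receptors or roles with these were counted likewise. Of 8 vascular endothelial growth factor ligands and receptors, 2 were called lower in eKO against control and none higher (25% beside 17.2% of all genes). *Pgf* (placental growth factor, which binds neuropilin-1) had 11197, 856 and 9637 counts and was at -3.90 on the log2 scale in eKO relative to control, and *Flt4*, a receptor, had 37, 6 and 18. With rLif against eKO *Pgf* was called higher, as was *Flt1*, a receptor of the family, with 158, 104 and 270 counts. Of 16 genes of the slit, netrin and repulsive guidance families, 3 were called higher and 3 lower in eKO against control (37.5% beside 17.2% of all genes). *Ntn4*, a netrin, had 348, 32 and 79 counts, *Slit2*, a ligand of Robo receptors, 62, 0 and 7, and *Unc5b*, a netrin receptor, 102, 24 and 33. These 3 were low in both eKO libraries and were called lower against control in each. *Dcc*, another netrin receptor, had 0, 15 and 2 counts and was called higher in eKO, as were *Unc5c* (0, 13 and 22) and *Robo4* (45, 150 and 91). With rLif, 1 gene of these families was called higher and 3 lower against control (25% beside 9.16%), and 1 lower against eKO (6.25% beside 15.6%).

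In blastocysts the called guidance genes were *Sema4c*, *Nrp2*, *Efna1*, *Plxnb1*, *Plxna4* and *Efna5*. Of 44 genes analysed, 2 were called lower, beside 1.86% of all genes, and none higher, beside 1.29%, in blastocysts of eKO mothers against control. The 2 made 4.55% beside 3.15% in either direction, a share near that of all genes. With rLif, 5 were called lower against control (11.4% beside 4.94%) and 2 lower against eKO (4.55% beside 3.75%), again with none higher. The median log2 ratios were 0.03, -0.18 and -0.25 in these comparisons, beside -0.00, -0.01 and -0.01 over all genes. Calls of all genes with rLif were also mostly downward, with 3.99% lower and 0.948% higher against control, and 2.83% lower and 0.914% higher against eKO. With edgeR's exact test at a dispersion of 0.1, 1 guidance gene was called in each comparison, beside 0.437%, 0.834% and 0.390% of all genes.

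**Figure D5:**
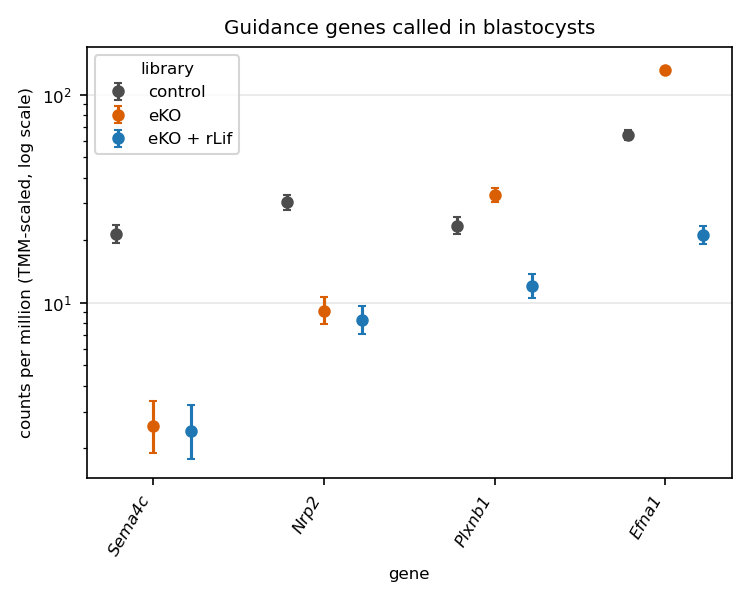
TMM-scaled CPM (log axis) of the 4 guidance genes with at least 100 counts that were called in blastocysts; points are single pooled libraries and bars are exact 95% Poisson intervals. *Sema4c* and *Nrp2* are high in the control library alone, and *Efna1* and *Plxnb1* are highest in the eKO library and lowest in the library with rLif.

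*Sema4c*, a transmembrane semaphorin that binds *Plxnb2*, had 408 counts in the control blastocysts, 50 in eKO and 47 in eKO with rLif. Control was high and the other two alike (-3.06, -3.52 to -2.64, and -3.15, -3.61 to -2.71). *Nrp2*, a co-receptor for class 3 semaphorins, had 581, 179 and 161 counts (-1.73, -1.98 to -1.49, and -1.88, -2.14 to -1.62), the same pattern. In the same control library the epithelial marker *Krt19* was high with 1401, 241 and 108 counts, as were the stroma markers *Vim* with 191, 72 and 100 and *Col1a2* with 53, 11 and 10. *Krt19* was the 1 of 7 luminal epithelium markers called in eKO against control, beside 3.15% of all genes. With rLif against control 2 of the 7 were called lower, beside 4.94%. The 7 summed to 7392, 7729 and 7527 CPM. *Krt8* and *Krt18* among them are also trophectoderm markers, so this sum does not separate uterine epithelium from trophectoderm. Of 10 analysed stroma markers 2 were called lower in eKO and 5 in eKO with rLif against control, with summed CPM of 170, 176 and 165. The part of these epithelial and stroma markers in the results for *Sema4c* and *Nrp2* was not tested. In the luminal layer *Sema4c* had 230, 196 and 210 counts.

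*Efna1* in blastocysts had 1223, 2567 and 412 counts in control, eKO and eKO with rLif. The eKO library was high and the library with rLif low, which is the reverse of the order in the luminal layer. The log2 ratio was 1.03 (0.93 to 1.13) for eKO against control, not called, -1.60 (-1.76 to -1.44) for eKO with rLif against control and -2.63 (-2.79 to -2.48) against eKO. *Plxnb1* had 448, 646 and 235 counts and was called lower with rLif than in eKO (-1.45, -1.67 to -1.23). *Lyz2*, a gene of myeloid cells, ran with *Efna1* at 976, 2128 and 289 counts, and made 51.2, 109 and 14.9 of the 64.7, 126 and 23.4 CPM to which 9 immune markers summed. None of the 9 was called higher in eKO against control, and 2 were called lower, *Cd52* with 48, 12 and 19 counts and *Cd3e* with 26, 4 and 14. With rLif against eKO, 3 of the 9 were called lower. The part of immune cells in the results for *Efna1* and *Plxnb1* was not tested.

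*Plxna4* (21, 5 and 2 counts) and *Efna5* (44, 25 and 8) were called lower with rLif than in control blastocysts at low counts. The analysed guidance genes called in none of the 3 comparisons had 5 to 8093 counts and log2 ratios from -1.86 to 2.01. The most abundant ephrin-B ligands and *Ephb3* were among them. *Efnb2* had 6516, 8093 and 6279 counts, *Efnb1* 3042, 3491 and 1763, and *Ephb3* 2677, 2855 and 2914. Of *Efnb2*, *Efnb1* and *Ephb3*, *Efnb1* was nearest to a call, with log2 ratios of -0.82 with rLif against control and -0.98 against eKO. Summed ephrin-B levels were 130, 153 and 106 CPM per kilobase, and those of EphB receptors 46.3, 50.6 and 49.4. *Epha4*, which differed in the luminal layer, had 650, 684 and 936 counts in blastocysts, and *Epha1* had 599, 664 and 557.

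Signaling partners were counted in blastocysts from the same lists. Of 31 analysed genes of semaphorin and plexin signaling, 1 was called in eKO against control, 3.23% beside 3.15% of all genes. It was *Mical2*, a cytoskeletal enzyme of the Mical family, with 139, 44 and 54 counts. With rLif 2 were called lower against control (6.45% beside 4.94%) and 2 lower against eKO (6.45% beside 3.75%), and *Fes*, a kinase bound to plexins, was among them both times with 81, 73 and 19 counts. Of 29 analysed genes of ephrin and Eph signaling none was called in eKO against control, and 1 was called higher with rLif against control (3.45% beside 4.94%), *Ngef* with 15, 49 and 65 counts. *Kdr*, a receptor of vascular endothelial growth factor, had 27, 0 and 0 counts and was at least 9.23-fold lower in eKO than in control. Its ligand *Vegfa* had 425, 608 and 214 counts, highest in eKO and lowest with rLif in the order of *Efna1*, and was called lower with rLif against eKO. *Ntn1*, a netrin, had 43, 51 and 4 counts and was called lower with rLif in both comparisons. Of the 10 analysed genes of the slit and netrin families, none was called in eKO against control, 2 were called lower with rLif against control (20.0% beside 4.94%) and 1 lower with rLif against eKO (10.0% beside 3.75%).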

How the data were processed

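SMART-seq v4 libraries were prepared by the authors from pooled microdissected epithelium (RNA of several samples per group) or pooled blastocysts. The authors aligned paired-end reads to GRCm38/mm10 with HISAT2 and counted them per gene with featureCounts (Subread 2.0.0, per the submitters' processing notes). The deposited values are whole-number counts, 1 table per tissue with exon lengths, not normalized, although the study's methods name a length-scaled unit for this step. Strand and multi-mapping settings are not given in the sources used here, so reads shared by overlapping genes or close paralogs of these families could have been assigned either way.

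Groups came from the labels, with 1 library each. The members and lists were chosen with earlier results of these data known. Library sizes were scaled by TMM within each tissue (edgeR 4.0.16, R 4.3.3), with a minimum of 10 counts. CPM used these sizes, and levels were CPM divided by exon length in kilobases. Intervals at 95% are exact, by Clopper and Pearson for ratios and from the Poisson distribution for levels. They cover counting error only, because each group was 1 library. PCR copies carry no molecular identifier and cannot be told from separate molecules, so the intervals may be too narrow even for that error. Where a library had 0 counts the fold is a bound against 3 counts. The study used edgeR with limits of 2-fold and FDR 0.05 and gave no dispersion. Those limits were applied through the exact test with a fixed dispersion of 0.1, for numbers of genes only.

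Named were called members with at least 100 counts in a library of that tissue (at most 25 per comparison), members among the 6 highest control levels of a tissue, up to 5 called members with fewer counts per comparison, and up to 4 called genes per list. Other genes named were chosen after their values were seen. The interval rule was tested on counts simulated from the Poisson distribution, with known changes added. The simulation held no variation between animals and no PCR copies, so it could not show how the rule behaves with them. Gene types came from GENCODE M21, which matched all 53 symbols, and promoter sequences from RefSeq (GRCm38.p6). The bases after the start lay in a GENCODE transcript of the gene in 50 of 61 promoter windows. *Sema6a*, on chromosome 18, is given by counts only. Of the luminal epithelium markers, 1 is not reported here.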

Additional observations from a re-analysis of the deposited data

Results flagged for a closer look

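Guidance genes called in opposite directions in the 2 tissues under the same comparison were *Efna1*, *Plxnb1* and *Efna5*. Each rests on 1 library per group, and the difference between tissues was not tested. The log2 ratio of eKO with rLif to eKO for *Efna1* was 3.66 in the luminal layer and -2.63 in blastocysts. For *Plxnb1* the same comparison gave 2.00 and -1.45. For *Efna5* the log2 ratio of eKO with rLif to control was 1.72 in the luminal layer and -2.49 in blastocysts, where it rested on 44 and 8 counts.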

How the results depend on the processing

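No group had more than 1 library, so leaving out a replicate was not possible and DESeq2, which needs replicates, was not run. No paired analysis was possible because each group had 1 library. The number of guidance genes called stayed within 1.5 times of the value given under 3 other scalings (library totals, median-of-ratios size factors and upper quartiles), without a minimum, with a minimum of 50 counts and without genes whose exons overlap another gene. It moved with the limit on the ratio. With a log2 limit of 0, 41, 30 and 36 genes were called in the luminal layer (eKO against control, eKO with rLif against control, eKO with rLif against eKO), beside 74.7%, 66.2% and 71.4% of all genes, and 23, 28 and 26 in blastocysts, beside 44.8%, 52.9% and 52.7%. With a log2 limit of 2, 4, 2 and 4 were called in the luminal layer, beside 5.53%, 1.88% and 4.78%, and 1, 1 and 1 in blastocysts, beside 0.672%, 1.0% and 0.625%. With edgeR's exact test at a dispersion of 0.1 the numbers were 6, 2 and 7 in the luminal layer and 1, 1 and 1 in blastocysts. Of 92 such alternative values, medians and levels included, 74 stayed within 1.5 times (counts) or within the main counting interval (medians and levels). Scaling by library totals lowered every luminal log2 ratio of eKO with rLif by 0.18 against control and by 0.11 against eKO, and the median ratio of guidance genes in the former went from 0.09 to -0.09. Of 405 values of 23 named genes under other scalings, none reversed a call, 3 calls were lost and 6 were gained, and 105 were kept. Depth limits genes with few counts, for which 0 counts in a library shows only that the gene was not detected.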
